A study of Mus musculus with 32 samples.

Results

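Wild-type mouse brain was compared between the embryonic stage E14.5, at mid-gestation, and the day of birth (PND0), gene by gene, over 4 whole-brain libraries at each stage. These 8 libraries are part of a series of 32, in which Dhcr7+/+ (WT) and Dhcr7-/- (KO) brains of strain C57BL/6J were sampled at E12.5, E14.5, E16.5 and PND0. All 8 carry intact Dhcr7, the gene of the last enzyme of cholesterol synthesis, and no animal of the series received a treatment that the labels name. The members are all genes of the deposited count tables: 55291 symbols, of which 17897 had enough counts in these 8 libraries to be tested. The 4 WT libraries at E16.5 were used to place the stage in between, and the 8 KO libraries at E14.5 and PND0 to ask whether the same step differed without Dhcr7. Libraries were made from polyadenylated RNA. The labels do not say whether the brains of a group came from separate litters or were pooled, nor their sex, so the p-values below measure the spread between these libraries. The stages were deposited in separate tables, and stage cannot be told apart from anything else that differed between the tables. In whole tissue, fewer cells of a type and less RNA per cell cannot be told apart.

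Between these stages the mouse brain passes from the height of neuron production to the start of gliogenesis. Radial glia, the stem cells that line the ventricles, divide to give intermediate progenitors and neurons at the earlier stage, and later give astrocytes and oligodendrocyte precursors. Young neurons settle, grow axons, and begin to install the receptors, channels and release machinery of synapses. Red blood cells of the embryo also exchange embryonic for adult globins in this period.

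Library totals were 21896526 to 28318857 counts at E14.5 and 16574943 to 20569715 at PND0, with 26056 to 26192 and 24840 to 26299 genes detected. The stages were not alike in every library property. Mitochondrially encoded genes took 1.37% to 1.54% of the counts at E14.5 and 1.93% to 2.66% at PND0, and the ribosomal RNA gene CT010467.1 took 1.04% to 1.17% and 1.80% to 2.79%. Haemoglobin genes took 0.111% to 0.145% and 0.0182% to 0.0244%. The Y-linked gene Ddx3y was above 1 CPM in 3 of 4 libraries at E14.5 and in 2 of 4 at PND0, so the sexes were not balanced between the stages. The part of these properties in the results below was not tested, except through the fits with other scalings and with a sex-gene covariate described in the closing section. Over 17724 genes with an annotated locus, the rank correlation (Spearman) of the log2 ratio was 0.118 with transcript length and 0.171 with gene span, given as a description, since all genes come from the same libraries. Markers of tissues next to the brain were checked as lists. Skeletal muscle markers summed to 6.39 to 7.76 CPM at E14.5 and 7.94 to 10.6 CPM at PND0, skin and oral epithelium to 22.5 to 26.2 and 43.0 to 55.3 CPM, and cartilage and bone to 315 to 351 and 146 to 163 CPM. The cartilage and bone sum includes Sox9, which radial glia also make, so it does not measure attached tissue alone. Markers of spinal cord and hindbrain summed to 6.00 to 11.7 and 1.57 to 8.04 CPM, and their part in the results was not tested. Pituitary markers summed to 13.2 to 16.6 and 5.22 to 11.5 CPM. Of those too low to be tested, the growth hormone gene Gh had 0 counts in all 8 libraries, Tshb had 17 counts at E14.5 and 40 at PND0, and Pou1f1 had 0 and 10. Albumin and Afp, products of liver and yolk sac, had 91 and 68 counts in E14.5 replicate 3 and at most 12 and 3 in any other library.

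A gene was called when edgeR's quasi-likelihood F test gave a Benjamini-Hochberg adjusted p under 0.05 over all genes tested. Values are given below as CPM (a gene's share of the scaled library, the usual depth-normalised count) and as the log2 ratio of PND0 to E14.5 with its standard error (SE). Gene coordinates are those of GRCm38. Of the 17897 genes, 5475 (30.6%) were higher at PND0 and 5410 (30.2%) were lower. Most of these differences were small, as 67.3% of the called genes changed by less than 2-fold. Called and at least 2-fold higher were 2309 genes (12.9%), and called and at least 2-fold lower were 1254 (7.01%). These shares are the background against which each gene group is read below. Where the groups of a gene are said not to overlap, this describes that gene only. The share of all tested genes without overlap is not given here, and with this many called genes it may be large. The median log2 fold change over all genes tested was -0.015. Among genes at least 2-fold higher the median gene span was 27702 bases, against 12109 bases among those at least 2-fold lower and 19774 over all tested genes. Processed pseudogenes made up 60 of the 2-fold lower and 17 of the 2-fold higher genes, of 598 tested. Their counts share reads with their parent genes, so they are uncertain.

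**Figure D1:**
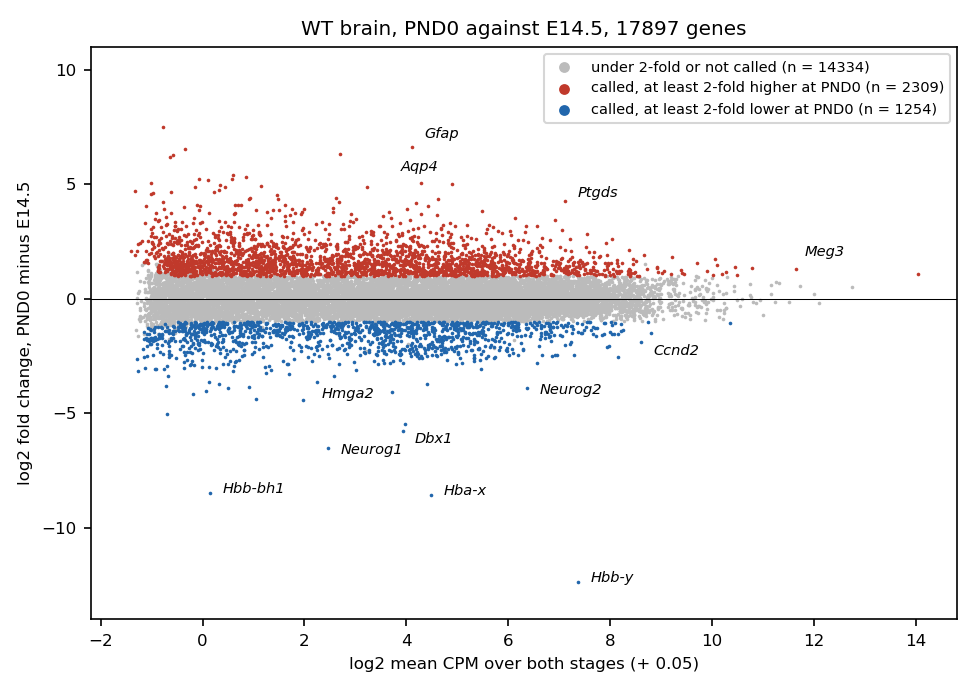
Log2 fold change (PND0 minus E14.5, y axis) of each tested gene against its mean level in CPM over both stages (x axis, log2 with 0.05 added). Red and blue points are the 2309 genes called at least 2-fold higher and the 1254 called at least 2-fold lower at PND0, and the embryonic globins Hbb-y and Hba-x lie at -12.4 and -8.59.

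Genes of cell division fell nearly as one. Of 33 members of the cell cycle and DNA replication list, 32 were lower at PND0 and 30 of these at least 2-fold, with a median log2 fold change of -2.19. Top2a (chr11:98992943-99024189), which encodes the topoisomerase that untangles replicated chromosomes, was at 256, 263, 277 and 264 CPM at E14.5 and 46.7, 48.6, 42.1 and 52.6 CPM at PND0. Every library at PND0 lay below every library at E14.5, and the stages were far apart (log2 ratio -2.48 ± 0.07, adjusted p = 5.5e-13). Ccnb1 (chr13:100778650-100786570), the cyclin of entry into mitosis, was at 83.8, 94.9, 96.2 and 87.8 CPM at E14.5 and 14.96, 15.98, 9.94 and 19.1 CPM at PND0 (log2 ratio -2.59 ± 0.14, adjusted p = 3.7e-09). Mcm5 (chr8:75109569-75128439), a subunit of the helicase that opens DNA for replication, was at 81.7, 77.2, 97.0 and 87.0 CPM at E14.5 and 21.0, 18.2, 17.3 and 22.6 CPM at PND0 (log2 ratio -2.11 ± 0.10, adjusted p = 2.6e-11). The groups did not overlap for either gene. The largest fall of the list was that of Cdc20, an activator of the complex that ends mitosis, at log2 ratio -2.72 ± 0.15, adjusted p = 1.2e-09. Ccnd2, a cyclin of the G1 phase that is abundant in radial glia, dropped from 615 ± 30.0 to 164.9 ± 8.99 CPM (mean ± SD, n = 4). The inhibitors of the cycle in this list went both ways. Cdkn1c fell (log2 ratio -1.24 ± 0.07, adjusted p = 3.5e-10), whereas Cdkn1a, a brake that responds to stress and differentiation, was the only member that rose. Cdkn1a was at 16.8, 17.0, 17.4 and 19.8 CPM at E14.5 and 45.0, 53.1, 57.0 and 36.7 CPM at PND0 (log2 ratio 1.43 ± 0.12, adjusted p = 3.7e-08).

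Promoters of cell cycle genes are known to carry recognition sites of the E2F factors, the cell cycle homology region (CHR) and CCAAT boxes. Windows of 250 bases before the transcription start were available for 12469 of the 17897 tested genes and for 26 of the 33 list members, from RefSeq on GRCm38.p6. Those of 4 members are shown because they belong to genes that fell in every library and together hold all 3 motifs. Top2a, Mcm5 and Ccnb1 stand for the list, and Cdk1, the kinase that drives mitosis, was added after the matches were seen because its window holds the 3 kinds together. Each runs 5′ to 3′ on the strand of the gene and ends at the base before the RefSeq start, which can differ from the end of the GENCODE gene whose coordinates are given elsewhere. Capitals mark matches on either strand to TTTCCCGC, TTTGGCGC or TTTCGCGC (E2F-like), TTTGAA (CHR-like) and CCAAT.
Top2a (chr11:99024190-99024439, - strand): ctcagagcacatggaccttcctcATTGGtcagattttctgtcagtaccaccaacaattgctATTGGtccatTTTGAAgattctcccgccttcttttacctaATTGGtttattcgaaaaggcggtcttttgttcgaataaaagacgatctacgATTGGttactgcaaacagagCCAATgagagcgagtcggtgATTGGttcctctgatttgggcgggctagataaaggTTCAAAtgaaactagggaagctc
Mcm5 (chr8:75109259-75109508, + strand): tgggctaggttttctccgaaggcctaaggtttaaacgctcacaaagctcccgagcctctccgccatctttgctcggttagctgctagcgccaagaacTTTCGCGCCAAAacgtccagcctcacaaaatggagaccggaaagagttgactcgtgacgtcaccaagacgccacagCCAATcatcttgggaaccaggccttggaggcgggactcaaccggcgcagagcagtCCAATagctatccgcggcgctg
Cdk1 (chr10:69352913-69353162, - strand): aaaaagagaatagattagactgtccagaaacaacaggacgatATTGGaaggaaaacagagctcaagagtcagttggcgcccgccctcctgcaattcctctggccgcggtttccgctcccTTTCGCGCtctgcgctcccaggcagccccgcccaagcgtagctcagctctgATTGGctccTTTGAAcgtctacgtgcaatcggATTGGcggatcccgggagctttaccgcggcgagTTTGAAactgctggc
Ccnb1 (chr13:100786487-100786736, - strand): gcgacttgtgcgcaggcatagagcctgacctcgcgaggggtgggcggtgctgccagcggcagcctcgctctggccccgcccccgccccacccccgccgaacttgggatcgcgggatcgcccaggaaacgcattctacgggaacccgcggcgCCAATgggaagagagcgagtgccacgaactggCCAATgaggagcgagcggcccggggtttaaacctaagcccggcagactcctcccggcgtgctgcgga
In Top2a there were 6 CCAAT matches and 2 CHR-like matches, the nearest 23 bases before the start. In Mcm5 there were 2 CCAAT matches and 2 E2F-like matches on opposite strands that overlap each other. Cdk1 (chr10:69335146-69352938) was itself at 51.5, 49.8, 58.7 and 55.6 CPM at E14.5 and 10.1, 11.9, 8.73 and 11.1 CPM at PND0 (log2 ratio -2.37 ± 0.10, adjusted p = 1.3e-11). Its window held 3 CCAAT, 2 CHR-like and 1 E2F-like match, and Ccnb1 held 2 CCAAT matches.

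Over the 26 cell cycle members with a window, 80.8% held CCAAT, 23.1% TTTGAA and 19.2% an E2F-like match. Among all 12469 windows of tested genes the shares were 35.8%, 10.6% and 2.79%. The 828 windows of genes called at least 2-fold lower lay above this at 43.8%, 17.5% and 5.19%, and the 1553 windows of genes at least 2-fold higher were at 29.2%, 10.6% and 1.22%. CCAAT and TTTGAA together were found in 9.54% of the windows of 2-fold lower genes, in 2.83% of those of 2-fold higher genes and in 4.06% of all. The windows of 2-fold higher genes had a median of 10 CpG dinucleotides, against 15 in the 2-fold lower genes, 15 in all and 19 in the cell cycle members. The median GC content was 58.8%, 59.6%, 59.6% and 56.8% in the same order. A match describes letters in the window and not a bound site.

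**Figure D2:**
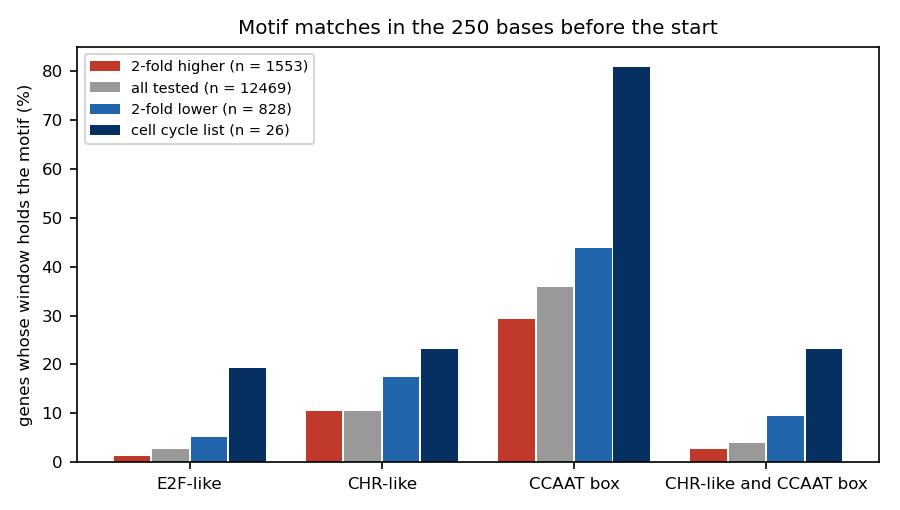
Share of 250-base windows before the transcription start (y axis, percent of genes with a window) that hold each motif on either strand, for genes called at least 2-fold higher, all tested genes, genes called at least 2-fold lower and the cell cycle list. For each of the 4 motif classes the 2-fold lower genes lie above all tested genes, and 80.8% of the cell cycle windows hold CCAAT.

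The genes that mark neural progenitors fell less evenly. Of 24 members tested, 15 were lower, 14 of them at least 2-fold, and 6 were higher, 3 of them at least 2-fold, with a median log2 fold change of -1.22. With length offsets, 1 was 2-fold higher. Nes (chr3:87971078-87980451), which encodes the intermediate filament nestin of radial glia, was at 408, 371, 439 and 410.3 CPM at E14.5 and 92.5, 92.6, 101 and 99.3 CPM at PND0 (log2 ratio -2.08 ± 0.06, adjusted p = 6.4e-13). Its libraries at PND0 all lay within 92.5 to 101 CPM, far below those at E14.5. Hmga2, a chromatin protein of young stem cells, had the largest fall of the list and was at 24.6, 23.1, 27.6 and 24.1 CPM at E14.5 and 1.85, 0.559, 1.82 and 1.59 CPM at PND0 (log2 ratio -4.07 ± 0.20, adjusted p = 7.8e-11). Hes5, an effector of Notch signalling, was at 25.6, 22.5, 28.8 and 26.8 CPM at E14.5 and 6.97, 18.5, 6.57 and 12.1 CPM at PND0 (log2 ratio -1.24 ± 0.29, adjusted p = 0.005). Replicate 2 at PND0 was the closest to the E14.5 range, which it did not reach. Of the members that rose, Fabp7 and Tnc are also made by maturing glia. Fabp7, a fatty acid binding protein of radial glia and astrocytes, went from 299.6 ± 5.44 to 437 ± 33.5 CPM (log2 ratio 0.54 ± 0.06, adjusted p = 6.4e-07), and Tnc, a matrix protein of glia, from 107 ± 10.5 to 259 ± 37.8 CPM (log2 ratio 1.28 ± 0.09, adjusted p = 1.5e-08).

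Factors that commit progenitors to the neuronal fate showed some of the deepest falls. In the neurogenic list of 22 tested members, 15 were lower, 13 at least 2-fold, and 3 were higher, 1 at least 2-fold, with a median of -1.58. Neurog2 (chr3:127633135-127635631), a proneural transcription factor, was at 162, 146, 168 and 144 CPM at E14.5 and 7.53, 15.9, 7.35 and 11.5 CPM at PND0 (log2 ratio -3.88 ± 0.22, adjusted p = 5.0e-07). Its relative Neurog1 was at 11.6, 9.94, 10.8 and 10.8 CPM at E14.5 and 0, 0.124, 0 and 0.298 CPM at PND0 (log2 ratio -6.53 ± 0.38, adjusted p = 3.0e-10), so that 2 libraries at PND0 held no count of it. With so few counts at PND0, the Neurog1 ratio is uncertain by more than its SE. Eomes, the factor of intermediate progenitors, was at 130.0, 131, 129.7 and 124 CPM at E14.5 and 29.7, 29.6, 13.97 and 34.1 CPM at PND0 (log2 ratio -2.26 ± 0.24, adjusted p = 7.0e-05), and replicate 3 was the lowest at PND0. Dll1, a Notch ligand of newly committed cells, was at 97.8, 89.3, 96.2 and 93.5 CPM at E14.5 and 29.3, 32.5, 32.8 and 37.1 CPM at PND0 (log2 ratio -1.51 ± 0.08, adjusted p = 6.1e-11). Dcx and Stmn2 of the same list, which postmitotic neurons make, did not fall. Dcx, a microtubule protein of migrating neurons, was at 783, 871, 786 and 772 CPM at E14.5 and 952, 863, 924 and 905 CPM at PND0 (log2 ratio 0.18 ± 0.05, adjusted p = 0.0075), with groups that overlap. That call was lost with all 32 libraries in 1 fit (adjusted p = 0.296) and with length offsets (adjusted p = 0.666). Stmn2, which regulates microtubules in growing axons, was the largest rise of the list at log2 ratio 1.23 ± 0.06, adjusted p = 3.5e-11.

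Patterning factors of restricted territories were among the 10 largest falls over all genes. Dbx1, a homeodomain factor of progenitors, was at 28.1, 27.1, 34.0 and 29.9 CPM at E14.5 and 0.112, 0.373, 0.884 and 0.746 CPM at PND0 (log2 ratio -5.77 ± 0.24, adjusted p = 2.5e-11). Tal2, a factor of midbrain GABA neurons, was at 29.9, 26.6, 34.9 and 31.5 CPM at E14.5 and 0.225, 0.435, 1.10 and 0.895 CPM at PND0 (log2 ratio -5.49 ± 0.23, adjusted p = 2.5e-11). Olig3, a factor of hindbrain and thalamic progenitors, was at 8.26, 6.12, 7.16 and 8.10 CPM at E14.5 and 0.337, 0.870, 0.0552 and 0.149 CPM at PND0 (log2 ratio -4.44 ± 0.39, adjusted p = 7.7e-08). Groups that do not overlap were a condition for entering these 10, so the separation was set by the choice. Fndc3c1 (log2 ratio -4.37 ± 0.41, adjusted p = 1.2e-07) and the deubiquitinase gene Usp44 (log2 ratio -4.15 ± 0.63, adjusted p = 2.4e-05) also belonged to these 10. The histone gene H2ac11 had 107 counts at E14.5 and 2 at PND0, a ratio of 39.0 with an exact 95% counting interval of 10.5 to 326.

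RNA-binding and chromatin genes tied to developmental timing moved in both directions. In the heterochronic, imprinted and growth list of 22, 13 were lower, 10 of them at least 2-fold, and 6 were higher, 2 at least 2-fold, with a median of -0.52. Igf2bp1 (chr11:95957163-96005940), an mRNA-binding protein of fetal tissue, was at 107, 97.3, 118 and 114 CPM at E14.5 and 18.4, 25.7, 21.7 and 13.97 CPM at PND0 (log2 ratio -2.46 ± 0.15, adjusted p = 1.7e-08). Lin28b, a blocker of let-7 processing, was at 21.4, 21.5, 18.4 and 19.2 CPM at E14.5 and 15.97, 16.7, 20.3 and 26.2 CPM at PND0 (log2 ratio -0.02 ± 0.14, adjusted p = 0.906), and its groups overlapped. H19, an imprinted RNA, fell (log2 ratio -0.49 ± 0.08, adjusted p = 4.1e-05), a call lost with all 32 libraries in 1 fit (adjusted p = 0.222). Its neighbour Igf2 was at 26.4 ± 2.41 and 30.97 ± 4.66 CPM and did not pass (log2 ratio 0.23 ± 0.11, adjusted p = 0.0755). Without PND0 replicate 1 it did, at 0.32 (adjusted p = 0.00945), and with a sex-gene covariate at 0.32 (adjusted p = 0.012). The largest rise was that of the growth factor gene Igf1 (log2 ratio 1.87 ± 0.16, adjusted p = 3.6e-08).

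In the list of chromatin subunits and DNA methylation genes, 14 of 27 were lower, 5 at least 2-fold, and 7 were higher, 1 at least 2-fold (median -0.26). Neural progenitors and neurons are known to use different subunits of the BAF chromatin remodeller. Actl6a (chr3:32706298-32726973), the progenitor subunit, was at 56.8, 53.5, 61.1 and 56.6 CPM at E14.5 and 14.6, 18.5, 16.46 and 20.2 CPM at PND0 (log2 ratio -1.71 ± 0.10, adjusted p = 2.5e-10). Its neuronal counterpart Actl6b was at 119, 109, 120.0 and 115 CPM at E14.5 and 135, 148, 120.2 and 137 CPM at PND0 (log2 ratio 0.22 ± 0.06, adjusted p = 0.0074), and the call was lost with all 32 libraries in 1 fit (adjusted p = 0.144). The ratio of Actl6b to Actl6a counts within a library was 1.96 to 2.10 at E14.5 and 6.75 to 9.27 at PND0. Uhrf1, which guides maintenance methylation behind the replication fork, had the largest fall (log2 ratio -2.48 ± 0.09, adjusted p = 5.1e-12). Of the de novo methyltransferases, Dnmt3b fell from 9.25 ± 0.625 to 4.23 ± 0.463 CPM (log2 ratio -1.13 ± 0.15, adjusted p = 4.3e-06), and Dnmt3a was at 264 ± 6.31 and 285 ± 26.7 CPM without passing the test (log2 ratio 0.11 ± 0.06, adjusted p = 0.152), which it passed without PND0 replicate 4 (0.16, adjusted p = 0.0299). The remodeller gene Chd5 rose most (log2 ratio 1.24 ± 0.05, adjusted p = 1.9e-11).

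Splicing regulators were split evenly, with 9 of 23 higher, 7 lower and 1 at least 2-fold on each side (median 0.04). Ptbp1 (chr10:79854427-79864771), the repressor of neuronal exons in progenitors, was at 189, 181, 199 and 191 CPM at E14.5 and 71.0, 80.4, 81.2 and 88.9 CPM at PND0 (log2 ratio -1.24 ± 0.07, adjusted p = 1.4e-10). Rbfox1 (chr16:5885355-7411526), a splicing factor of neurons, was at 88.7, 97.6, 83.3 and 89.1 CPM at E14.5 and 213, 216, 216 and 221 CPM at PND0 (log2 ratio 1.27 ± 0.06, adjusted p = 3.0e-11). Both were the extremes of the list, and neither overlapped between the stages. Rbfox3, whose protein is the neuronal marker NeuN, rose by less (log2 ratio 0.58 ± 0.07, adjusted p = 2.2e-06), and Srrm4 did not pass (log2 ratio -0.14 ± 0.07, adjusted p = 0.0808). Srrm4 did pass without PND0 replicate 2 (adjusted p = 0.0333), with no filter (adjusted p = 0.0155) and with length offsets (adjusted p = 0.00677), each time lower.

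Regional and laminar identity genes of the cortex and hindbrain had 7 of 24 higher and 13 lower, with 3 and 6 at least 2-fold (median -0.52). Fezf2, a factor of neurons that project below the cortex, was at 74.5, 72.3, 77.9 and 67.7 CPM at E14.5 and 38.5, 45.9, 43.3 and 48.8 CPM at PND0 (log2 ratio -0.73 ± 0.08, adjusted p = 5.8e-07). Its libraries at PND0 all lay below those at E14.5. Tbr1, a factor of deep-layer neurons, fell from 218 ± 5.95 to 159 ± 36.0 CPM (log2 ratio -0.46 ± 0.15, adjusted p = 0.0222). It was lowest in PND0 replicate 3, and the call was lost with all 32 libraries in 1 fit (adjusted p = 0.143). Reln, the secreted guide of layering, rose (log2 ratio 0.59 ± 0.07, adjusted p = 2.1e-06), and Pax3, a factor of the dorsal neural tube, had the largest fall (log2 ratio -2.43 ± 0.27, adjusted p = 5.0e-06).

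Genes of the GABA interneuron lineage were mixed. Of 21 members, 10 were higher and 8 lower, with 4 and 3 at least 2-fold (median 0.12). Nkx2-1, which specifies interneurons in the ventral forebrain, had the largest fall and was at 80.2, 71.1, 77.2 and 71.1 CPM at E14.5 and 16.6, 23.0, 7.29 and 25.3 CPM at PND0 (log2 ratio -2.05 ± 0.33, adjusted p = 0.0014). Replicate 3 was the lowest at PND0 and lay far below its group. Peptide genes that mark interneuron subtypes differed. Npy was at 8.17, 6.67, 8.89 and 7.98 CPM at E14.5 and 32.7, 35.4, 18.7 and 32.8 CPM at PND0 (log2 ratio 1.92 ± 0.17, adjusted p = 1.8e-07), Sst went from 39.4 ± 2.46 to 74.6 ± 9.54 CPM (log2 ratio 0.92 ± 0.09, adjusted p = 1.4e-07), and Cck rose most (log2 ratio 2.19 ± 0.14, adjusted p = 1.1e-09). Vip, the 1 member too low to be tested, had 2, 18, 4 and 14 counts at E14.5 and 1, 5, 3 and 6 at PND0, and its groups overlapped. Gad1 (chr2:70553072-70602014), an enzyme of GABA synthesis, was at 110.2, 124, 98.4 and 112 CPM at E14.5 and 242, 218, 229.5 and 211 CPM at PND0 (log2 ratio 1.02 ± 0.07, adjusted p = 2.8e-09). Lhx6, a factor of postmitotic interneurons, was at 64.9, 66.7, 62.3 and 62.6 CPM at E14.5 and 81.3, 81.4, 47.1 and 69.2 CPM at PND0 and did not pass (log2 ratio 0.12 ± 0.14, adjusted p = 0.479). Without PND0 replicate 3, its lowest library, it was higher at 0.28 (adjusted p = 0.00254).

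Genes of neurotransmission rose as groups. All 22 glutamate receptor genes were higher at PND0, 17 of them at least 2-fold, with a median of 1.61, against 30.6% and 12.9% over all genes. Grm5 (chr7:87584168-88134907), a metabotropic receptor, rose most and was at 17.3, 23.4, 16.4 and 18.1 CPM at E14.5 and 158, 147, 156 and 105 CPM at PND0 (log2 ratio 2.90 ± 0.15, adjusted p = 1.1e-08). Grin2b (chr6:135713233-136173511), the NMDA receptor subunit of the fetal brain, was at 102, 113, 92.4 and 98.5 CPM at E14.5 and 344, 298, 362 and 226 CPM at PND0 (log2 ratio 1.598 ± 0.13, adjusted p = 9.4e-07). Grin2a, the subunit that gains ground after birth, was at 4.35, 3.404, 3.25 and 3.21 CPM at E14.5 and 14.6, 13.9, 13.3 and 11.8 CPM at PND0 (log2 ratio 1.92 ± 0.15, adjusted p = 9.0e-09). Neither overlapped between the stages, and replicate 4 at PND0 was the lowest for all 3 genes. Per kilobase of all annotated exons merged, Grin2b stood at 4.085 and 12.4 CPM and Grin2a at 0.198 and 0.748 CPM, so Grin2b remained the higher of them at PND0. The ratio of their counts overlapped between the stages, at 0.0301 to 0.0426 and 0.0367 to 0.0524. Gria2, the AMPA receptor subunit that limits calcium entry, rose by less (log2 ratio 0.76 ± 0.06, adjusted p = 8.7e-09), and Grm3, a metabotropic receptor of glia and neurons, rose from 6.49 ± 1.59 to 32.7 ± 7.93 CPM (log2 ratio 2.33 ± 0.20, adjusted p = 3.3e-07).

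Among GABA-A receptor subunits, glycine receptor subunits and chloride transporters, 15 of 16 were higher, all 15 at least 2-fold (median 1.58). The response to GABA is known to depend on chloride, which Slc12a2 (NKCC1) brings into the cell and Slc12a5 (KCC2) takes out. Slc12a5 (chr2:164960802-164999731) was at 133, 136, 125.3 and 132 CPM at E14.5 and 328, 388, 410.2 and 326 CPM at PND0 (log2 ratio 1.46 ± 0.07, adjusted p = 7.1e-11). Slc12a2 was at 50.7, 52.5, 53.1 and 49.2 CPM at E14.5 and 55.9, 46.6, 50.3 and 54.5 CPM at PND0, the 1 member that did not pass (log2 ratio 0.01 ± 0.07, adjusted p = 0.893). The ratio of their counts within a library was 2.36 to 2.68 at E14.5 and 5.87 to 8.32 at PND0. Gabra5, the alpha subunit of extrasynaptic receptors, rose most and was at 11.9, 12.8, 9.83 and 10.9 CPM at E14.5 and 84.7, 88.2, 82.5 and 76.6 CPM at PND0 (log2 ratio 2.86 ± 0.09, adjusted p = 6.4e-13). Gabra2, an early alpha subunit, was at 27.5, 30.7, 25.4 and 25.3 CPM at E14.5 and 63.2, 56.4, 66.5 and 40.3 CPM at PND0 (log2 ratio 1.05 ± 0.13, adjusted p = 7.1e-06), with replicate 4 the lowest at PND0.

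**Figure D3:**
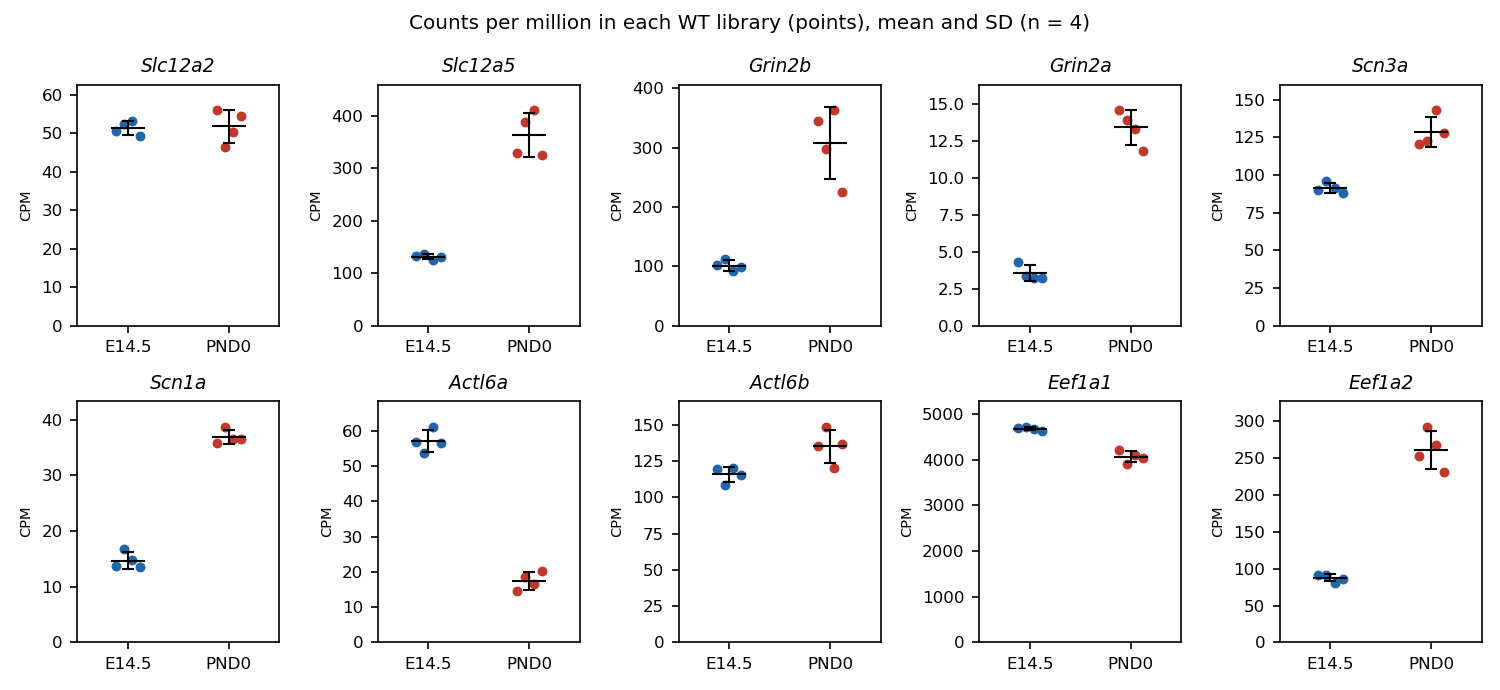
Level of 10 genes in CPM (y axis from 0, own scale in each panel) in each WT library at E14.5 and PND0, with mean and SD (n = 4). The genes form 5 pairs with related products, chosen after their values were seen, and within the pairs Slc12a2 was at 46.6 to 55.9 CPM at PND0 while Slc12a5 was at 326 to 410.2 CPM.

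All 22 genes of presynaptic vesicles and release were higher, 15 at least 2-fold (median 1.35). Snap25 (chr2:136713453-136782428), which fuses vesicles with the membrane, was at 79.4, 84.3, 71.7 and 76.1 CPM at E14.5 and 255, 235, 243 and 215 CPM at PND0 (log2 ratio 1.61 ± 0.07, adjusted p = 1.2e-11). Syn1, which tethers vesicles, went from 112 ± 3.54 to 292 ± 19.9 CPM (log2 ratio 1.38 ± 0.06, adjusted p = 1.8e-11), and Sncb, which encodes beta-synuclein, had the largest rise (log2 ratio 2.33 ± 0.08, adjusted p = 1.6e-12). The vesicular glutamate transporters, which load vesicles, rose in different measure. Slc17a7, the cortical form, was at 28.9, 26.6, 29.1 and 28.6 CPM at E14.5 and 93.1, 80.9, 51.0 and 59.3 CPM at PND0 (log2 ratio 1.33 ± 0.16, adjusted p = 2.2e-05), and Slc17a6, the subcortical form, at 103, 109, 113 and 104 CPM at E14.5 and 144.9, 149, 209 and 143 CPM at PND0 (log2 ratio 0.59 ± 0.11, adjusted p = 0.00028). PND0 replicate 3 was lowest for Slc17a7 and highest for Slc17a6.

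Postsynaptic scaffold and plasticity genes were higher in 20 of 22 cases, 11 at least 2-fold (median 1.02). Nrgn (chr9:37544492-37552904), the calmodulin-binding protein neurogranin, was at 7.997, 4.99, 5.83 and 4.98 CPM at E14.5 and 101, 96.0, 71.3 and 65.3 CPM at PND0 (log2 ratio 3.81 ± 0.19, adjusted p = 4.5e-09), the largest rise of the list. Camk2a, the kinase of synaptic potentiation, went from 61.3 ± 1.97 to 144.6 ± 25.9 CPM (log2 ratio 1.24 ± 0.10, adjusted p = 1.4e-07), and Dlg4, which encodes the scaffold PSD-95, rose by less (log2 ratio 0.40 ± 0.06, adjusted p = 2.2e-05). Ppp1r1b, the dopamine-regulated phosphatase inhibitor of striatal neurons, was at 7.52, 9.18, 6.85 and 8.27 CPM at E14.5 and 24.9, 33.1, 7.79 and 23.5 CPM at PND0 (log2 ratio 1.48 ± 0.39, adjusted p = 0.0109). Its PND0 replicate 3 lay inside the E14.5 range. Arc did not pass (log2 ratio 0.30 ± 0.19, adjusted p = 0.181).

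Of 22 voltage-gated channel genes, 21 were higher and 11 at least 2-fold (median 1.02). Scn1a, the sodium channel of mature inhibitory neurons, was at 13.8, 16.8, 14.7 and 13.6 CPM at E14.5 and 35.9, 38.7, 36.5 and 36.6 CPM at PND0 (log2 ratio 1.32 ± 0.09, adjusted p = 2.4e-09), and Scn3a, the sodium channel of the fetal brain, at 90.1, 95.9, 91.3 and 88.2 CPM at E14.5 and 121, 123, 143 and 128 CPM at PND0 (log2 ratio 0.49 ± 0.06, adjusted p = 2.8e-06). Both rose in all libraries, and the count ratio of Scn1a to Scn3a went from 0.153 to 0.175 at E14.5 to 0.256 to 0.315 at PND0. Kcna1 was at 2.04, 2.75, 1.87 and 1.81 CPM at E14.5 and 1.35, 2.61, 4.92 and 2.54 CPM at PND0 and did not pass (log2 ratio 0.42 ± 0.32, adjusted p = 0.267).

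Axon genes were mixed, with 20 of 31 higher and 8 lower, 6 and 1 of them at least 2-fold (median 0.43). Dcc, the netrin receptor, was at 159.5, 167, 164 and 157 CPM at E14.5 and 59.9, 62.3, 65.7 and 72.4 CPM at PND0 (log2 ratio -1.31 ± 0.06, adjusted p = 3.9e-11). Gap43, a growth cone protein, was at 374, 388, 371 and 377 CPM at E14.5 and 784, 815, 839 and 765 CPM at PND0 (log2 ratio 1.085 ± 0.05, adjusted p = 2.8e-11), and Omg, a myelin-associated inhibitor of outgrowth, had the largest rise of the list (log2 ratio 3.18 ± 0.18, adjusted p = 1.9e-10). The heavy neurofilament gene Nefh went from 6.16 ± 1.22 to 18.1 ± 4.23 CPM (log2 ratio 1.55 ± 0.17, adjusted p = 1.0e-06). Cntn2, an adhesion protein of early axons, was slightly lower (log2 ratio -0.22 ± 0.05, adjusted p = 0.00081), a call lost with all 32 libraries in 1 fit (adjusted p = 0.294).

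Neurotrophin and neuropeptide genes were higher in 14 of 22 cases and lower in 3, with 11 and 2 at least 2-fold (median 1.01). Bdnf (chr2:109674700-109727007) was at 2.61, 3.61, 2.40 and 2.96 CPM at E14.5 and 6.58, 7.27, 8.12 and 7.505 CPM at PND0 (log2 ratio 1.34 ± 0.18, adjusted p = 5.3e-06), and Ntrk2, its receptor TrkB, at 146, 146, 136 and 141 CPM at E14.5 and 368, 314, 440.4 and 285 CPM at PND0 (log2 ratio 1.31 ± 0.11, adjusted p = 3.1e-07). Ligand and receptor thus both rose, without overlap. Avp, the vasopressin gene of the hypothalamus, was at 0, 0.447, 0.0445 and 0.453 CPM at E14.5 and 6.07, 7.71, 1.05 and 6.31 CPM at PND0 (log2 ratio 4.38 ± 0.78, adjusted p = 0.00073), with PND0 replicate 3 far below its group. Penk rose (log2 ratio 1.15 ± 0.16, adjusted p = 1.4e-05), and Pomc, the precursor of melanocortins, had the largest fall (log2 ratio -1.91 ± 0.27, adjusted p = 1.3e-05).

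Among genes of monoamine and cholinergic neurons, 14 of 23 were higher and 3 lower, with 8 and 1 at least 2-fold (median 0.86). The 1 became 2 under several alternatives, among them leaving out E14.5 replicate 3 or any PND0 library. The receptors of dopamine target cells rose: Drd1 (chr13:54051183-54055705) was at 3.30, 3.34, 2.71 and 2.14 CPM at E14.5 and 12.1, 11.6, 4.86 and 9.34 CPM at PND0 (log2 ratio 1.72 ± 0.25, adjusted p = 2.4e-05) and Drd2 (chr9:49340627-49408177) at 5.35, 4.64, 2.98 and 4.32 CPM at E14.5 and 14.96, 15.4, 10.9 and 13.4 CPM at PND0 (log2 ratio 1.66 ± 0.17, adjusted p = 3.9e-07). Genes that dopamine neurons use did not move together in whole brain, where levels within those neurons were not measured. The transporter gene Slc6a3 was at 1.74, 1.96, 1.201 and 1.89 CPM at E14.5 and 7.70, 5.91, 14.97 and 4.08 CPM at PND0 (log2 ratio 2.25 ± 0.36, adjusted p = 0.00011), with the highest value in PND0 replicate 3, while Th, the enzyme of dopamine synthesis, was at 8.30, 7.53, 8.98 and 7.77 CPM at E14.5 and 5.79, 8.39, 10.2 and 8.15 CPM at PND0 and did not pass (log2 ratio -0.0026 ± 0.16). Pitx3, a factor of midbrain dopamine neurons, had the largest fall (log2 ratio -1.94 ± 0.50, adjusted p = 0.0029), and the serotonin receptor gene Htr1a the largest rise (log2 ratio 2.48 ± 0.21, adjusted p = 2.6e-08).

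Immediate early genes, which neurons switch on upon activity, were higher in 15 of 20 cases and lower in 4, with 9 and 2 at least 2-fold (median 0.88). Without PND0 replicate 4 the 2 became 1. Fos (chr12:85473890-85477273) was at 1.17, 0.619, 1.07 and 0.658 CPM at E14.5 and 7.59, 9.70, 9.39 and 6.66 CPM at PND0 (log2 ratio 3.25 ± 0.24, adjusted p = 5.6e-09). Egr1 was at 3.83, 4.95, 5.16 and 5.43 CPM at E14.5 and 15.7, 25.6, 36.1 and 17.1 CPM at PND0 (log2 ratio 2.28 ± 0.25, adjusted p = 6.6e-06), and Egr4, one of the 10 largest rises of all genes, at 0, 0, 0.0890 and 0.0823 CPM at E14.5 and 1.124, 2.80, 1.27 and 1.84 CPM at PND0 (log2 ratio 5.24 ± 0.65, adjusted p = 3.1e-06). Every library at PND0 was above every library at E14.5 for these 3, which for Egr4 was a condition of its choice. Npas4, which depends on calcium entry, rose by less (log2 ratio 0.93 ± 0.16, adjusted p = 9.6e-05). The largest fall was that of Btg2 (log2 ratio -1.92 ± 0.14, adjusted p = 2.2e-08), an antiproliferative gene of neurogenic progenitors that is also in the neurogenic list.

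Astrocyte genes held 3 of the 10 largest rises of all genes. Of 22 members, 20 were higher, 16 at least 2-fold, and 2 were lower, both at least 2-fold (median 1.45). Gfap (chr11:102887336-102900912), the intermediate filament of astrocytes, was at 0.522, 0.206, 0.489 and 0.165 CPM at E14.5 and 47.2, 34.2, 34.1 and 21.4 CPM at PND0 (log2 ratio 6.65 ± 0.33, adjusted p = 3.4e-09). Aqp4, the water channel of astrocyte endfeet, was at 1.13, 1.51, 1.11 and 0.781 CPM at E14.5 and 38.4, 33.6, 50.8 and 29.4 CPM at PND0 (log2 ratio 5.04 ± 0.21, adjusted p = 3.0e-11). Agt, which encodes angiotensinogen, was at 0.217, 0.0688, 0.133 and 0.206 CPM at E14.5 and 10.3, 11.1, 19.9 and 9.34 CPM at PND0 (log2 ratio 6.33 ± 0.35, adjusted p = 3.6e-10). All 3 were at or below 1.51 CPM in each library at E14.5 and at or above 9.34 CPM at PND0, with Agt highest in replicate 3. Groups that do not overlap were a condition for entering the 10 largest rises, so this separation was set by the choice. Not all members did so. The glutamate transporter gene Slc1a2 was at 138, 136, 129 and 134 CPM at E14.5 and 184, 154, 186 and 134 CPM at PND0 (log2 ratio 0.29 ± 0.09, adjusted p = 0.0095), with overlapping groups, and its call was lost with all 32 libraries in 1 fit (adjusted p = 0.121) and with length offsets (adjusted p = 0.337). Gja1, the gap junction gene, rose by less than 2-fold (log2 ratio 0.41 ± 0.10, adjusted p = 0.0035). The members that fell, Fgfr3 (log2 ratio -1.29 ± 0.07, adjusted p = 1.3e-10) and Sox9 (log2 ratio -1.08 ± 0.07, adjusted p = 1.5e-09), are also made by radial glia.

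The oligodendrocyte lineage was higher in 14 of 19 tested members, 8 at least 2-fold, and lower in none (median 0.85). Gpr17 (chr18:31942997-31949636), a receptor of committed precursors, was at 2.22, 2.51, 1.16 and 1.89 CPM at E14.5 and 33.3, 36.7, 27.2 and 24.1 CPM at PND0 (log2 ratio 3.94 ± 0.19, adjusted p = 1.2e-10), and Pdgfra, the receptor that defines precursors, at 23.2, 20.6, 22.1 and 24.2 CPM at E14.5 and 74.3, 54.6, 90.03 and 73.2 CPM at PND0 (log2 ratio 1.70 ± 0.12, adjusted p = 9.9e-09). The groups did not overlap. Mbp, which encodes a major protein of myelin, was at 35.1, 33.8, 34.7 and 35.5 CPM at E14.5 and 52.9, 47.5, 44.7 and 46.9 CPM at PND0 (log2 ratio 0.46 ± 0.07, adjusted p = 3.9e-05), a smaller rise in which the groups did not overlap either.

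**Figure D4:**
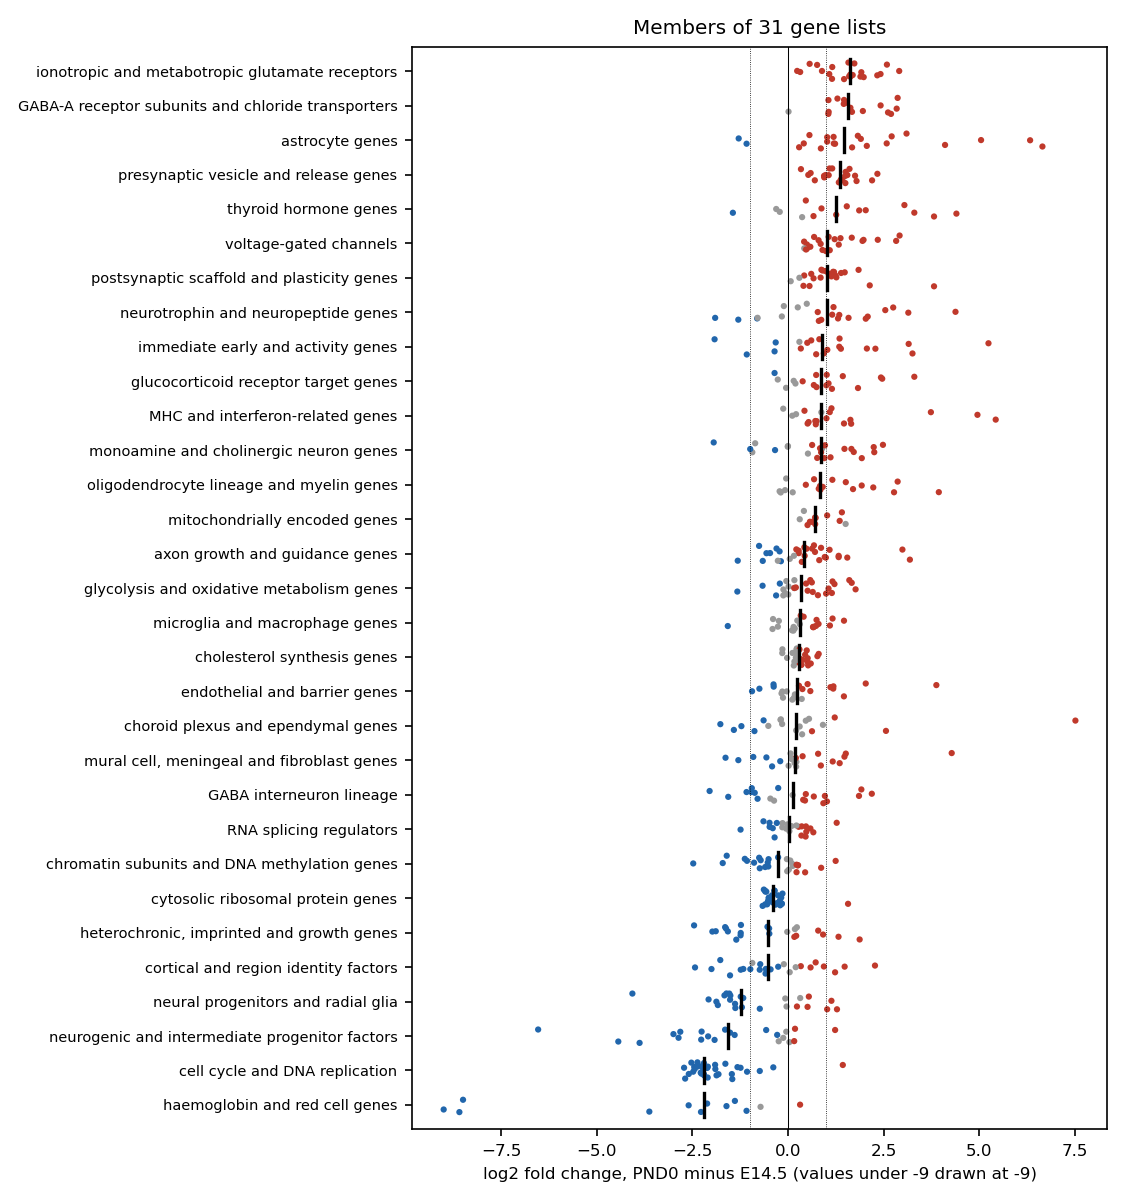
Log2 fold change (PND0 minus E14.5, x axis) of each tested member of 31 gene lists (rows, ordered by median), with the list median as a black bar and dotted lines at 2-fold. Red members were called higher, blue lower and grey not called, and the lists run from the red cell and cell cycle genes at the bottom to the glutamate receptors at the top.

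Of microglia genes, 11 of 22 were higher, 3 at least 2-fold, and 1 lower (median 0.32). Without E14.5 replicate 4 the count of 3 was 1. C1qa (chr4:136895917-136898803), a complement component, was at 5.43, 4.85, 4.71 and 5.55 CPM at E14.5 and 8.49, 7.46, 10.7 and 8.996 CPM at PND0 (log2 ratio 0.80 ± 0.15, adjusted p = 0.00024), and Csf1r, the receptor these cells need for survival, at 22.6, 26.4, 23.7 and 23.7 CPM at E14.5 and 36.8, 34.2, 33.0 and 24.0 CPM at PND0 (log2 ratio 0.41 ± 0.11, adjusted p = 0.0054). For Csf1r, PND0 replicate 4 lay inside the E14.5 range. Cx3cr1 was at 11.5, 11.2, 9.92 and 10.04 CPM at E14.5 and 14.4, 14.1, 14.4 and 10.1 CPM at PND0 and narrowly missed the threshold (log2 ratio 0.31 ± 0.13, adjusted p = 0.0524), which it passed without PND0 replicate 4 (0.43, adjusted p = 0.00316) and with RLE size factors (adjusted p = 0.0472). P2ry12 did not pass (log2 ratio 0.24 ± 0.24, adjusted p = 0.408). Cd74, near the detection limit, was the largest rise (log2 ratio 1.46 ± 0.49, adjusted p = 0.0158). Its call was lost without E14.5 replicate 2 (adjusted p = 0.0537) or without replicate 4 (adjusted p = 0.0591). The member that fell, Sall1, is made by neural progenitors as well as microglia (log2 ratio -1.57 ± 0.12, adjusted p = 7.7e-08).

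MHC and interferon-related genes were higher in 15 of 19 cases, 9 at least 2-fold, and lower in none (median 0.87). Ifit1 (chr19:34640871-34650009), which an interferon signal switches on, was at 0, 0.0688, 0.0445 and 0.123 CPM at E14.5 and 2.19, 2.42, 5.91 and 0.895 CPM at PND0 (log2 ratio 5.43 ± 0.70, adjusted p = 5.7e-06), with PND0 replicate 3 the highest. C4b, a complement gene that astrocytes also make, was at 0.0435, 0.103, 0.133 and 0 CPM at E14.5 and 4.44, 1.55, 1.55 and 1.89 CPM at PND0 (log2 ratio 4.95 ± 0.60, adjusted p = 2.2e-06), with replicate 1 the highest. The class I gene H2-D1 (chr17:35262730-35267499) rose more evenly over the libraries. It was at 20.4, 19.6, 21.4 and 23.4 CPM at E14.5 and 37.8, 35.8, 35.5 and 32.9 CPM at PND0 (log2 ratio 0.74 ± 0.09, adjusted p = 1.2e-06). B2m rose by 0.51 on the log2 scale (adjusted p = 0.00095), and the interferon-related gene Ifitm3 by 1.65 (adjusted p = 1.0e-06).

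Endothelial and barrier genes were higher in 10 of 22 cases, 6 at least 2-fold, and lower in 4, none of these 2-fold (median 0.23). Without E14.5 replicate 2, 1 of them was 2-fold lower. Plvap (chr8:71497765-71511752), a component of leaky vessels, was at 8.91, 7.43, 9.12 and 9.87 CPM at E14.5 and 4.38, 5.04, 4.03 and 4.92 CPM at PND0 (log2 ratio -0.94 ± 0.15, adjusted p = 4.9e-05), the largest fall of the list. Cldn5, the tight junction gene of the barrier, was at 40.3, 40.2, 38.5 and 39.4 CPM at E14.5 and 52.9, 56.9, 59.4 and 56.5 CPM at PND0 (log2 ratio 0.51 ± 0.07, adjusted p = 5.4e-06), and Ly6c1 had the largest rise, at 0.304, 0.447, 0.0890 and 0.535 CPM at E14.5 and 5.06, 6.59, 3.92 and 5.37 CPM at PND0 (log2 ratio 3.88 ± 0.35, adjusted p = 5.8e-08). Mfsd2a, the lipid transporter of barrier endothelium, did not pass (log2 ratio -0.13 ± 0.08, adjusted p = 0.153).

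In the mural, meningeal and fibroblast list, 9 of 22 were higher and 6 lower, with 5 and 2 at least 2-fold (median 0.19). Ptgds (chr2:25466709-25470046), a prostaglandin synthase of the meninges, was at 15.1, 15.8, 12.3 and 10.8 CPM at E14.5 and 269, 216, 321 and 245 CPM at PND0 (log2 ratio 4.28 ± 0.15, adjusted p = 6.8e-10). Lum, a collagen-binding proteoglycan, had the largest fall (log2 ratio -1.63 ± 0.12, adjusted p = 5.0e-09). Pdgfrb, the receptor of pericytes, was at 48.2 ± 3.75 and 50.4 ± 1.48 CPM and did not pass (log2 ratio 0.06 ± 0.07, adjusted p = 0.468). The smooth muscle gene Acta2 rose (log2 ratio 0.86 ± 0.21, adjusted p = 0.0018), a call lost with all 32 libraries in 1 fit (adjusted p = 0.127). Col1a1 was a borderline fall (log2 ratio -0.20 ± 0.07, adjusted p = 0.0243). Its call was lost without E14.5 replicate 1 or 3, without PND0 replicate 2 or 4, with all 32 libraries in 1 fit and with a sex-gene covariate (adjusted p from 0.0517 to 0.681).

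Choroid plexus and ependymal genes had 4 of 19 higher and 5 lower, with 3 on each side at least 2-fold (median 0.21). Without E14.5 replicate 3, 5 were at least 2-fold higher. Tmem212 (chr3:27866066-27896368), a gene of ciliated ependymal cells, had no count in any library at E14.5 and 76 counts at PND0, at least 34.7-fold higher against 3 counts over the group. Its level at PND0 was 1.01, 1.24, 1.10 and 0.895 CPM. Ccdc153, another ciliary gene and the 1 member too low to be tested, had 4, 2, 0 and 0 counts at E14.5 and 49, 21, 7 and 12 at PND0, so each library at birth was above each at E14.5. Foxj1, the master factor of motile cilia, was at 23.9, 21.9, 25.3 and 27.3 CPM at E14.5 and 24.2, 23.3, 21.6 and 17.4 CPM at PND0 and did not pass (log2 ratio -0.19 ± 0.11, adjusted p = 0.154). Ttr, the transthyretin of the choroid plexus, was at 296, 385, 309 and 439 CPM at E14.5 and 475, 536, 274 and 558 CPM at PND0 and did not pass either (log2 ratio 0.37 ± 0.25, adjusted p = 0.251). Without PND0 replicate 3, its lowest library at that stage, Ttr was higher at 0.56 (adjusted p = 0.0104), and with the replicate block at 0.34 (adjusted p = 0.028). Folr1 did not pass (log2 ratio -0.20 ± 0.20, adjusted p = 0.416), Enpp2 rose (log2 ratio 0.63 ± 0.08, adjusted p = 4.8e-06), and Otx2, a factor of choroid plexus and midbrain, fell most (log2 ratio -1.77 ± 0.14, adjusted p = 1.6e-07).

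Globin genes made the deepest falls of all. Of 12 red cell genes tested, 10 were lower, all at least 2-fold, and 1 was higher (median -2.20). Hbb-y (chr7:103851749-103853216), an embryonic beta-type globin, was at 283, 297, 429.5 and 319 CPM at E14.5 and 0, 0, 0.221 and 0 CPM at PND0 (log2 ratio -12.40 ± 0.35, adjusted p = 6.4e-10). Hba-x, the embryonic alpha-type globin, was at 37.0, 37.0, 60.8 and 44.8 CPM at E14.5 and 0, 0, 0 and 0.398 CPM at PND0 (log2 ratio -8.59 ± 0.45, adjusted p = 4.2e-08). Hbb-bh1, another embryonic beta-type globin, had 205 counts at E14.5 and none at PND0, at least 49.9-fold lower against 3 counts over the group. Each was thus at or next to 0 at birth. The few counts there leave the log2 ratios of Hbb-y and Hba-x uncertain by more than their SE. The adult globin Hbb-bs fell by far less and was at 312, 359, 353 and 256 CPM at E14.5 and 120.0, 88.6, 112 and 99.3 CPM at PND0 (log2 ratio -1.61 ± 0.11, adjusted p = 6.2e-08). Hbb-bs and its neighbour Hbb-bt are near-identical, so their counts are uncertain. Alas2, the haem synthesis enzyme of red cells, fell from 15.7 ± 2.74 to 7.39 ± 1.71 CPM (log2 ratio -1.08 ± 0.17, adjusted p = 3.0e-05). The summed level of the red cell list was 1108 to 1458 CPM at E14.5 and 206 to 274 CPM at PND0, and the blood left in the tissue was not measured otherwise. Car2, which glia also make, was the member that rose (log2 ratio 0.31 ± 0.13, adjusted p = 0.0458). Its call was lost under several alternatives, among them the replicate block (adjusted p = 0.0521), DESeq2 (adjusted p = 0.0589) and the omission of E14.5 replicate 1, 2 or 4 or of PND0 replicate 2, 3 or 4 (adjusted p from 0.0501 to 0.166).

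Of 18 glucocorticoid receptor targets, 13 were higher, 9 at least 2-fold, and 1 was lower (median 0.87). Klf9 (chr19:23141226-23168134), a target of both glucocorticoid and thyroid hormone, was at 2.69, 2.68, 2.62 and 2.76 CPM at E14.5 and 28.6, 25.6, 26.1 and 25.9 CPM at PND0 (log2 ratio 3.30 ± 0.11, adjusted p = 1.6e-12). Its 4 libraries at each stage were nearly alike. The receptor gene Nr3c1 rose (log2 ratio 0.67 ± 0.13, adjusted p = 0.00028), as did Sgk1 (log2 ratio 1.001 ± 0.11, adjusted p = 9.2e-07) and Zbtb16 (log2 ratio 1.01 ± 0.12, adjusted p = 2.4e-06), whereas Fkbp5, a chaperone that restrains the receptor, was at 70.0, 71.7, 70.0 and 75.2 CPM at E14.5 and 67.3, 65.0, 60.0 and 84.1 CPM at PND0 and did not pass (log2 ratio -0.05 ± 0.09, adjusted p = 0.627). Without PND0 replicate 4, its highest library, Fkbp5 was lower at -0.15 (adjusted p = 0.0458). Dusp1 was slightly lower (log2 ratio -0.35 ± 0.12, adjusted p = 0.0216). Its call was lost without E14.5 replicate 1, PND0 replicate 1 or PND0 replicate 4 (adjusted p from 0.0622 to 0.0692).

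Thyroid hormone genes were higher in 11 of 15 cases, 8 at least 2-fold, and lower in 1 (median 1.26). Dio2 (chr12:90724552-90738438), the deiodinase that activates the hormone, was at 0.391, 0.688, 0.667 and 0.411 CPM at E14.5 and 13.6, 10.8, 11.3 and 10.8 CPM at PND0 (log2 ratio 4.4 ± 0.21, adjusted p = 5.1e-11). Dio3, the deiodinase that destroys it, was at 3.69, 4.13, 4.36 and 4.85 CPM at E14.5 and 4.10, 3.11, 1.66 and 4.82 CPM at PND0 and did not pass (log2 ratio -0.31 ± 0.26, adjusted p = 0.311). The receptor gene Thra rose from 419 ± 10.3 to 768 ± 52.8 CPM (log2 ratio 0.87 ± 0.06, adjusted p = 9.9e-10), and the hormone-responsive corepressor gene Hr from 6.01 ± 0.723 to 14.4 ± 3.31 CPM (log2 ratio 1.26 ± 0.17, adjusted p = 5.4e-06). Slc16a10, a transporter of the hormone, had the largest fall (log2 ratio -1.44 ± 0.16, adjusted p = 1.1e-06).

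Of 26 genes of cholesterol synthesis and transport, 14 were higher, none of them 2-fold, none was lower and 12 did not pass (median 0.28). Their summed level was 2483 to 2533 CPM at E14.5 and 2439 to 3597 CPM at PND0, so the groups overlapped. Dhcr7 (chr7:143823145-143848410) was at 67.9, 69.0, 66.9 and 67.9 CPM at E14.5 and 96.3, 95.7, 101 and 59.9 CPM at PND0 (log2 ratio 0.38 ± 0.13, adjusted p = 0.0264). PND0 replicate 4 lay below the whole E14.5 range, and without it Dhcr7 remained called. The call was lost when any other of the 8 libraries was left out (adjusted p from 0.0524 to 0.0906) and with length offsets (adjusted p = 0.0559). The same library was the lowest at PND0 for Hmgcs1, an early enzyme of the pathway, which was at 396, 404, 391 and 391 CPM at E14.5 and 742, 695, 792 and 464 CPM at PND0 (log2 ratio 0.77 ± 0.14, adjusted p = 0.00089). Cyp46a1, which turns cholesterol over in neurons, had the largest rise (log2 ratio 0.80 ± 0.09, adjusted p = 1.2e-06).

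Among glycolytic and oxidative genes, 16 of 28 were higher and 4 lower, with 7 and 1 at least 2-fold (median 0.34). The hexokinases went opposite ways. Hk1 (chr10:62268855-62379908), the neuronal form, was at 121, 132, 124.7 and 132 CPM at E14.5 and 294, 296, 314 and 275 CPM at PND0 (log2 ratio 1.21 ± 0.06, adjusted p = 4.7e-11), and Hk2 (chr6:82725025-82774454), a form of dividing cells, at 20.8, 18.1, 22.9 and 20.4 CPM at E14.5 and 7.98, 10.1, 8.34 and 6.41 CPM at PND0 (log2 ratio -1.32 ± 0.13, adjusted p = 2.6e-07). The neuronal enolase gene Eno2 rose most (log2 ratio 1.76 ± 0.07, adjusted p = 8.6e-12). Ldhb was lower in each library (log2 ratio -0.31 ± 0.05, adjusted p = 7.5e-05). Ldha was higher (log2 ratio 0.47 ± 0.15, adjusted p = 0.0228), but PND0 replicate 4 was at 183 CPM, inside the E14.5 range. Its call was lost without E14.5 replicate 2 or PND0 replicate 2 or 3, with no filter and with the replicate block (adjusted p from 0.054 to 0.114).

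Cytosolic ribosomal protein and translation genes fell together by a small amount, 27 of 28 lower and none of these 2-fold (median -0.41). Rplp0 (chr5:115559467-115563727) was at 901, 858, 924 and 895 CPM at E14.5 and 719, 743, 736 and 755 CPM at PND0 (log2 ratio -0.28 ± 0.05, adjusted p = 8.1e-05), and Rpl3 was lower by 0.21 (log2 ratio -0.21 ± 0.05, adjusted p = 0.0013), a call lost with all 32 libraries in 1 fit (adjusted p = 0.0571). Rps28 had the largest fall (log2 ratio -0.66 ± 0.20, adjusted p = 0.0177), and its call was lost without PND0 replicate 3 (adjusted p = 0.0752) and with no filter (adjusted p = 0.0585). The member that rose, Eef1a2 (chr2:181147653-181157014), is the elongation factor form of neurons and was at 92.1, 92.1, 81.3 and 86.6 CPM at E14.5 and 253, 292, 268 and 231 CPM at PND0 (log2 ratio 1.57 ± 0.07, adjusted p = 3.0e-11). Its ubiquitous counterpart Eef1a1 was at 4686, 4714, 4671 and 4634 CPM at E14.5 and 4213, 3911, 4102 and 4030 CPM at PND0 (log2 ratio -0.20 ± 0.04, adjusted p = 0.00037). The count ratio of Eef1a2 to Eef1a1 was 0.0174 to 0.0197 at E14.5 and 0.0573 to 0.0748 at PND0.

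Of 12 mitochondrially encoded genes, 9 were higher, 3 at least 2-fold, and none was lower (median 0.71). mt-Co1 (chrM:5328-6872), a subunit of the last respiratory complex, was at 5649, 6045, 5384 and 5557 CPM at E14.5 and 7649, 7646, 9045 and 7873 CPM at PND0 (log2 ratio 0.51 ± 0.06, adjusted p = 6.3e-07). mt-Nd1 rose (log2 ratio 0.71 ± 0.11, adjusted p = 0.00019), as did mt-Cytb (log2 ratio 0.57 ± 0.05, adjusted p = 1.9e-08). mt-Nd5 was at 735, 876, 718 and 722 CPM at E14.5 and 728, 2052, 2978 and 2333 CPM at PND0 (log2 ratio 1.41 ± 0.42, adjusted p = 0.0255), with PND0 replicate 1 inside the E14.5 range. Its call was lost when any library other than PND0 replicate 1 was left out, with no filter and with the replicate block (adjusted p from 0.0515 to 0.103). The count of 3 was 1 without E14.5 replicate 3 or 4, without PND0 replicate 3 and with no filter on low counts.

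In level, the largest gain among genes other than mitochondrial and clone-named ones was that of the noncoding RNA Meg3 (chr12:109541001-109571726), which was at 1810, 1935, 1798 and 1814 CPM at E14.5 and 4017, 4614, 5185 and 4543 CPM at PND0 (log2 ratio 1.32 ± 0.06, adjusted p = 5.1e-11). Mapt, the microtubule protein tau, was at 1015, 1057, 952 and 1015 CPM at E14.5 and 2657, 2566, 2550 and 2326 CPM at PND0 (log2 ratio 1.32 ± 0.05, adjusted p = 6.8e-12). Kif1a, the motor of synaptic vesicle precursors, rose from 759 ± 24.2 to 1598 ± 80.4 CPM. Snhg11 (log2 ratio 1.49 ± 0.07, adjusted p = 1.2e-10), Dpysl3 (log2 ratio 0.69 ± 0.05, adjusted p = 1.2e-08), Map1b (log2 ratio 0.58 ± 0.10, adjusted p = 0.00023), Ywhag (log2 ratio 0.95 ± 0.06, adjusted p = 5.5e-10) and Stmn2 were among the same 10, as was Lars2. Lars2, the mitochondrial leucyl-tRNA synthetase gene, was at 575, 424, 455 and 517 CPM at E14.5 and 1694, 1319, 1450 and 2089 CPM at PND0 (log2 ratio 1.73 ± 0.16, adjusted p = 1.3e-05). The ribosomal RNA gene CT010467.1 moved with it, from 10103 to 11444 CPM at E14.5 to 18535 to 28467 CPM at PND0, and its part in the Lars2 value was not tested. The Lars2 call was lost with all 32 libraries in 1 fit (adjusted p = 0.0554).

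Nnat (chr2:157560078-157562522), an imprinted gene, was among the 10 largest losses in level. It was at 2562, 2443, 2677 and 2503 CPM at E14.5 and 1282, 1676, 1496 and 1698 CPM at PND0 (log2 ratio -0.73 ± 0.07, adjusted p = 5.4e-07). Sox11 (chr12:27334264-27342574), a factor of immature neurons, was at 1749, 1840, 1785 and 1733 CPM at E14.5 and 891, 824, 755 and 899 CPM at PND0 (log2 ratio -1.08 ± 0.06, adjusted p = 1.2e-10). Miat, a noncoding RNA, went from 1536 ± 54.3 to 834 ± 107 CPM and Vim, the filament vimentin of radial glia, from 666 ± 25.2 to 233 ± 16.1 CPM. The RNA-binding protein genes Hnrnpa2b1 (log2 ratio -0.79 ± 0.05, adjusted p = 1.4e-09) and Hnrnpa0 (log2 ratio -0.89 ± 0.09, adjusted p = 4.1e-07), the chromatin protein gene Ptma (log2 ratio -0.91 ± 0.07, adjusted p = 4.5e-09), the ubiquitin ligase gene Nedd4 (log2 ratio -0.62 ± 0.07, adjusted p = 1.6e-06), Ccnd2 and Eef1a1 completed these 10.

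The remaining largest fold rises fell in no single list. Cidea had 1 count at E14.5 and 105 at PND0, a ratio of 144 with an exact 95% counting interval of 25.3 to 5739, and Frem3 had 1 and 89, a ratio of 122 (21.3 to 4873). Dsc3, a desmosomal cadherin, was at 0, 0.172, 0 and 0.123 CPM at E14.5 and 2.64, 3.54, 6.02 and 1.64 CPM at PND0 (log2 ratio 5.33 ± 0.62, adjusted p = 2.0e-06), and Ankrd34c at 0, 0.241, 0 and 0 CPM at E14.5 and 3.54, 3.23, 2.87 and 1.59 CPM at PND0 (log2 ratio 5.22 ± 0.66, adjusted p = 4.5e-06). All were at the limit of detection at E14.5.

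The WT libraries at E16.5, which the comparison did not use, lay between the other stages for most of these genes. Scaled together with the 8 libraries, their mean lay between the E14.5 and PND0 means for 1940 of 2309 genes at least 2-fold higher (84%). It did so for 1084 of the 1254 at least 2-fold lower (86.4%). These genes were chosen for a called 2-fold gap between those means, which by itself makes an E16.5 mean between them likely. The share over all tested genes is not given here, so these counts do not stand as separate evidence for the step. A median of 42.4% of the log2 step had been made by E16.5 among the higher genes and 51.4% among the lower ones. Hmga2 stood at 4.31 ± 1.26 CPM at E16.5 and Igf2bp1 at 34.2 ± 4.79 CPM, nearer to their level at birth. Syn1 was at 112 ± 20.2 CPM and Slc12a5 at 151 ± 31.3 CPM, nearer to E14.5. Of the higher genes, 264 had E16.5 at or below E14.5 and 105 at or above PND0. Of the lower genes, 103 had E16.5 at or above E14.5 and 67 at or below PND0. Gria2, called higher by less than 2-fold and so not among these genes, was above its level at birth, at 749 ± 41.0 CPM. Lars2 varied between 507 and 4918 CPM before scaling among the E16.5 libraries, so it has no usable value there.

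**Figure D5:**
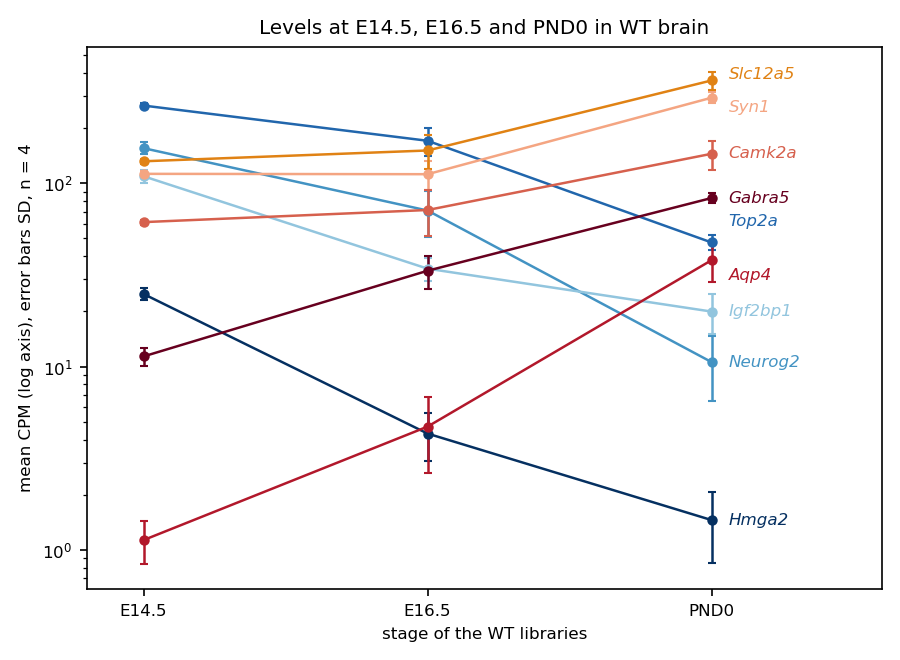
Mean level in CPM (y axis, log scale) of 9 genes in WT brain at E14.5, E16.5 and PND0 (x axis), with SD (n = 4 libraries). Top2a, Neurog2, Hmga2 and Igf2bp1 go down through E16.5, and Aqp4, Gabra5, Camk2a and Slc12a5 go up, while Syn1 is level until E16.5.

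The same step was taken by the KO brains with other libraries. In a fit of the 8 KO libraries alone, 1974 genes were at least 2-fold higher and 1225 at least 2-fold lower. Shared with WT were 1632 higher genes, 70.7% of the WT and 82.7% of the KO list, and 860 lower genes, 68.6% and 70.2%. Of the WT 2-fold calls, 0 were called in the opposite direction in KO under the same test at an adjusted p under 0.05. A test of the difference between the steps over 16 libraries called 110 of 18802 genes (0.585%), with 3024 at an unadjusted p under 0.05. The KO step was the more positive for 48 of them and the more negative for 62. The count was not stable: 635 with DESeq2, 1 with all 32 libraries in 1 fit, and between 16 and 380 when a library was left out. The rank correlation of level with transcript length within a library also differed by genotype at birth. It was 0.430 to 0.451 in WT and 0.390 to 0.412 in KO at PND0, against 0.397 to 0.412 and 0.4015 to 0.412 at E14.5. Its part in the difference between the steps, including the genes named below, was not tested.

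The 3 genes with the smallest p for that difference encode kinases, and all 3 differed through their level at birth. Lmtk2 (chr5:144100436-144188204) rose in WT from 99.3 to 104 CPM at E14.5 to 162 to 178 CPM at PND0, whereas in KO it was at 103 to 108 CPM and then at 102 to 126 CPM. The KO step was lower by a log2 difference of -0.64 (adjusted p = 0.00101). Mtor (chr4:148448611-148557683), the kinase of the growth pathway that bears its name, was at 138 to 149 CPM and 143 to 161 CPM in WT, and at 138 to 144.6 CPM and 85.3 to 102.5 CPM in KO (-0.62, adjusted p = 0.00101). Map3k9 was at 68.4 to 80.3 CPM and 79.2 to 104 CPM in WT, and at 68.5 to 77.6 CPM and 41.0 to 53.2 CPM in KO (-0.90, adjusted p = 0.00101). Its rise in WT alone was not called with all 32 libraries in 1 fit (adjusted p = 0.262). Dhcr7 itself was called higher in WT, with overlapping groups and a call that most omissions of a library removed, as given above. Its step did not differ by this test (adjusted p = 0.604), at levels in KO of 11.6 to 14.2 CPM and 11.4 to 15.6 CPM.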

How the data were processed

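RNA-seq of polyadenylated RNA from whole brain was deposited by the authors as raw counts per gene symbol, 1 table per stage. HISAT2, SAMtools, featureCounts, DESeq2 and the build mm10 are named in the submitters' processing notes. Their versions, the annotation and the strand setting of the counting are not given in the sources used here, so antisense and overlapping genes are uncertain. Per the labels, each group holds 4 libraries, numbered 1 to 4.

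The WT tables were joined by symbol and tested with edgeR 4.0.16 in R 4.3.3: TMM scaling, filterByExpr (minimum count 10, minimum total 15), and a robust quasi-likelihood F test with Benjamini-Hochberg adjustment at 0.05 over 17897 genes. CPM come from edgeR's cpm function with TMM factors. Standard errors were taken from the F statistic, as the absolute log2 ratio over the root of F. For genes near 0 at 1 stage they can understate the counting error. The biological coefficient of variation was 11.3%. A count of 0 allows up to 3 counts, which is 0.106 to 0.137 CPM at E14.5 and 0.146 to 0.181 CPM at PND0, for counting error only. E16.5 levels come from a common TMM scaling of 12 WT libraries, and the share of a step used a pseudocount of 0.5 CPM. The difference between WT and KO steps was the interaction term over 16 libraries. The scripts were tested on simulated data. Of the 55291 symbols, 53292 matched the GENCODE M21 annotation of GRCm38 by name and 372 through a RefSeq synonym, for coordinates and lengths.

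The members and gene lists were chosen with earlier results of these data known. Named genes are the 10 largest rises and falls by log2 fold change (at least 1 CPM in the higher group) and by CPM, all with groups that do not overlap and without unnamed gene models, preset members of each list with its largest called rise and fall, the 3 smallest interaction p and Dhcr7. Cdk1, Sox9, the ribosomal RNA gene and the check markers Gh, Alb and Afp were named after their values were seen. Some genes that fall under this rule are not reported here. Alternatives were RLE size factors, no filter, DESeq2 1.42.0, each library left out, a replicate block, 1 fit of all 32 libraries, a sex-gene covariate, length offsets, a scaling without haemoglobin, mitochondrial and ribosomal RNA genes, edgeR's glmTreat and a longer promoter window. Leaving out each E16.5 library was added after the data were seen.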

Additional observations from a re-analysis of the deposited data

Results flagged for a closer look

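Among 390 groups of 4 libraries, 31 held a library far from the other 3 by Dixon's criterion, and chance flags about 1 in 20 groups. E14.5 replicate 2 accounted for 11 of them, PND0 replicate 4 for 8, PND0 replicate 3 for 7, PND0 replicate 1 for 4 and E14.5 replicate 3 for 1.

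In E14.5 replicate 2 the values apart were Xist at 753.7 CPM (the others 0 to 0.391), Meg3 at 1935 (1798 to 1814), Dpysl3 at 2040 (1917 to 1929), Nedd4 at 1503 (1452 to 1458), Dcx at 870.8 (772 to 786), Rpl3 at 528.5 (546 to 549) and mt-Nd5 at 875.8 (718 to 735). Replicate 2 was also the E14.5 library without the Y-linked Ddx3y, at 0 CPM before scaling (the others 61.6 to 75.3). Near the detection limit the same library had Cidea at 0.0344, Frem3 at 0.0344 and Ankrd34c at 0.2407 with the others at 0, and H2ac11 at 0.6878 (1.23 to 1.26). E14.5 replicate 3 stood apart for the mitotic gene Cdc20 at 78.59 (65.2 to 67.5).

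PND0 replicate 4 was the lowest for Dhcr7 at 59.94 CPM (95.7 to 101), Ldha at 183 (291 to 312), Eno2 at 117.2 (141 to 142), Syn1 at 262.6 (299.8 to 304), Ywhag at 1445 (1699 to 1741), Fabp7 at 386.4 (451 to 457) and Cx3cr1 at 10.14 (14.11 to 14.45), and had Hba-x at 0.3976 with the others at 0. PND0 replicate 3 was lowest for the cortical gene Tbr1 at 105.1 (170.4 to 180.5) and for Npy at 18.67 (32.7 to 35.4). It was highest for Slc17a6 at 209.1 (143 to 149), Agt at 19.94 (9.34 to 11.1), mt-Co1 at 9045 (7646 to 7873) and Mtor at 160 (142.5 to 144), and had Hbb-y at 0.2209 with the others at 0. PND0 replicate 1 was highest for Penk at 24.01 (17.0 to 17.8), C4b at 4.442 (1.55 to 1.89) and Cryab at 6.466 (4.42 to 4.64), and had H2ac11 at 0.1124 with the others at 0.

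The step differed between KO and WT for 5 of the 203 named genes tested, by edgeR's interaction test. Values are the log2 difference KO minus WT with its adjusted p over 18802 genes. Over all these genes, 110 (0.585%) were called, and 1 with all 32 libraries in 1 fit. The 3 kinase genes were Lmtk2 at -0.6354, Mtor at -0.6206 and Map3k9 at -0.904 (adjusted p = 0.00101 each). They were named for their small interaction p, so their being called was set by the choice. The methyltransferase gene Dnmt3a was at -0.4966 (adjusted p = 0.0293) and the glycine transporter gene Slc6a5 at -2.703 (adjusted p = 0.0444).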

How the results depend on the processing

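No gene called in the 8-library fit was called in the opposite direction under any alternative, and 3255 to 3548 of the 3563 2-fold calls were shared. With edgeR's glmTreat against a 2-fold change, 1955 genes passed (1309 higher, 646 lower). With the replicate block the step had 10392 calls (5180 higher, 5212 lower). Same-numbered libraries did not deviate together (correlations -0.0407, -0.165, 0.0108 and -0.0501), so the numbers do not pair the samples. The count of genes whose step differed between KO and WT, 110, was 108 with RLE size factors, 88 with the replicate block, 663 with no filter, 635 with DESeq2 and 1 with all 32 libraries in 1 fit. Leaving out 1 library gave 16 to 380. It was 30, 17 and 19 without WT replicates 1, 3 and 4 at E14.5, 21, 38, 16 and 30 without KO replicates 1 to 4 at E14.5, 378, 52 and 380 without WT replicates 2, 3 and 4 at PND0, and 273 without KO replicate 4 at PND0. The cause was not tested.

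The genes whose direction turned were all uncalled in the 8-library fit. Slc12a2 was at -0.027 with no filter, -0.030 with the sex-gene covariate and -0.10 with length offsets, and at -0.025 to 0.059 when a library was left out. Th was at 0.0066 with RLE, 0.011 with all 32 libraries, 0.083 with the covariate and 0.0014 with length offsets (-0.12 to 0.13 without a library). With length offsets Pdgfrb was at -0.046, Dnmt3a at -0.063 and Mtor at -0.11, and with the covariate Ddx3y was at 0.90. Leaving out a library took Lin28b from -0.18 to 0.071, Fkbp5 from -0.15 to 0.021 and Slc6a5 from -0.47 to 0.20. In 300-base promoter windows, which add 50 bases after the start, the shares in 2-fold lower genes, 2-fold higher genes and all were 7%, 1.55% and 3.34% for E2F-like, 23.3%, 11.1% and 11.8% for CHR-like, 46.6%, 31.7% and 38.2% for CCAAT, and 14.1%, 3.09% and 4.91% for the last 2 together. The cause was not tested. The scaling without haemoglobin, mitochondrial and ribosomal RNA genes also left them out of the fit, so their lists have fewer genes there. E16.5 lay between the other stages for 2936 to 3033 of the 2-fold genes when each E16.5 library was left out, against 3024.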
